A study of Mus musculus with 4 samples.

Results

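The genes described here are 39 mouse genes of fatty acid and cholesterol synthesis, chosen by name: 6 regulators, 5 genes of fatty acid synthesis from acetyl-CoA, 10 of fatty acid desaturation and elongation and 18 of sterol synthesis and transport. They were read in pancreatic islets, small groups of endocrine cells that release insulin and other hormones, of GPR41 transgenic (Tg) and wild-type (WT) littermate mice. GPR41, encoded by Ffar3, is a receptor for short-chain fatty acids. All mice were C57BL/6 and aged 5 to 6 months, and all islets were kept in RPMI medium before RNA extraction. Each group had 2 Affymetrix arrays, which the titles call biological replicates, so a p-value measures the spread between these samples. The labels do not give the promoter or the sequence of the transgene, nor how many mice an array holds. Of the 39 genes, 36 had a probeset (a set of probes read as 1 value) paired with that gene alone, among 22180 genes measured in this way. Acat2, Idi1 and Scd2 had none and are not among the 36. No filter on dim genes was applied, so all 36 were tested. Ffar3 itself stood at 11.02 and 10.98 on the Tg arrays, against 7.09 and 6.47 on the WT arrays (log2 level). The WT arrays differed from each other in markers of exocrine cells, whose acinar list had mean levels of 9.76 and 10.80 there.

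Cells make fatty acids from cytosolic acetyl-CoA, which ATP citrate lyase and acetyl-CoA synthetase supply, acetyl-CoA carboxylase activates and fatty acid synthase joins into palmitate. Elongases then lengthen the chain and desaturases add double bonds, both to new fatty acids and to polyunsaturated ones from the diet. Cholesterol is built from the same acetyl-CoA by way of mevalonate, squalene and lanosterol. Many genes of both routes are targets of SREBP transcription factors, which sterols hold back in the endoplasmic reticulum. In islets these lipids enter membranes and secretory granules.

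Fads2, the delta-6 desaturase that begins the making of long polyunsaturated fatty acids, was the member with a clear difference. It fell 2.46-fold in Tg islets and was the 1 call among the 36 genes at an adjusted p under 0.05, where 0.897% of all genes were called and 0.225% were called lower. Around it, the sterol enzymes and the regulators lay slightly lower in Tg, with median differences of -0.21 and -0.23 (log2, Tg minus WT). The other 8 measured genes of the desaturation and elongation class had a median difference of -0.02, close to the median of all genes tested (-0.02). In all, 27 of the 36 members had a difference below 0, as did 54.3% of all genes and 60.0% of genes above the median level. The share among brighter genes is the closer background, since 35 of the 36 members lay above the median level of all genes. The members were chosen with earlier results of these data known, and that choice can raise their counts beside the shares of all genes.

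The median distance of members between the arrays of a group was below that of all genes. It was 0.08 in Tg and 0.09 in WT (log2), against 0.12 in Tg and 0.14 in WT over all genes. That of genes above the median level was not taken. Single members spread widely, such as Fads3 by 1.32 in WT and Scd1 by 0.81 in Tg. The 2 groups did not overlap for 25 members, 21 lower and 4 higher in Tg. Over all genes 42.3% had groups that did not overlap, 23.7% lower and 18.6% higher. Among genes above the median level, 47.4% did not overlap, 30.4% lower and 17.0% higher. At an unadjusted p under 0.05, 10 members were lower and 2 higher, where 5.72% of all genes were lower and 6.13% higher, and 7.49% of genes above the median level were lower and 6.7% higher. These last members are not calls, because all but Fads2 had an adjusted p of at least 0.158.

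The plots of array values and of differences show how far Fads2 stood from the rest.

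**Figure D1:**
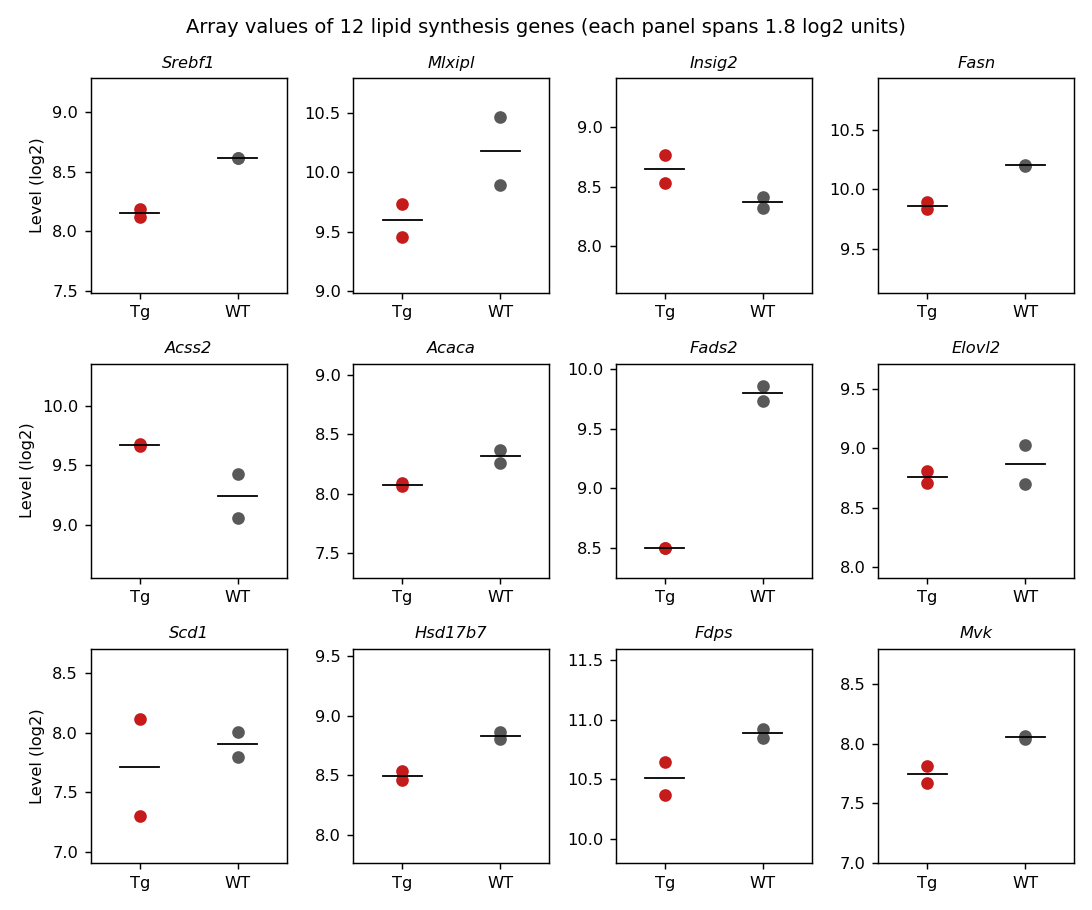
Log2 levels on each array of the 3 members with the smallest p in each of the 4 classes, Tg left of WT, with the group mean as a bar; each panel spans the same height. The arrays of Fads2 stand at 8.50 and 8.50 in Tg, below 9.74 and 9.86 in WT, while Scd1 and Elovl2 have groups that overlap.

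**Figure D2:**
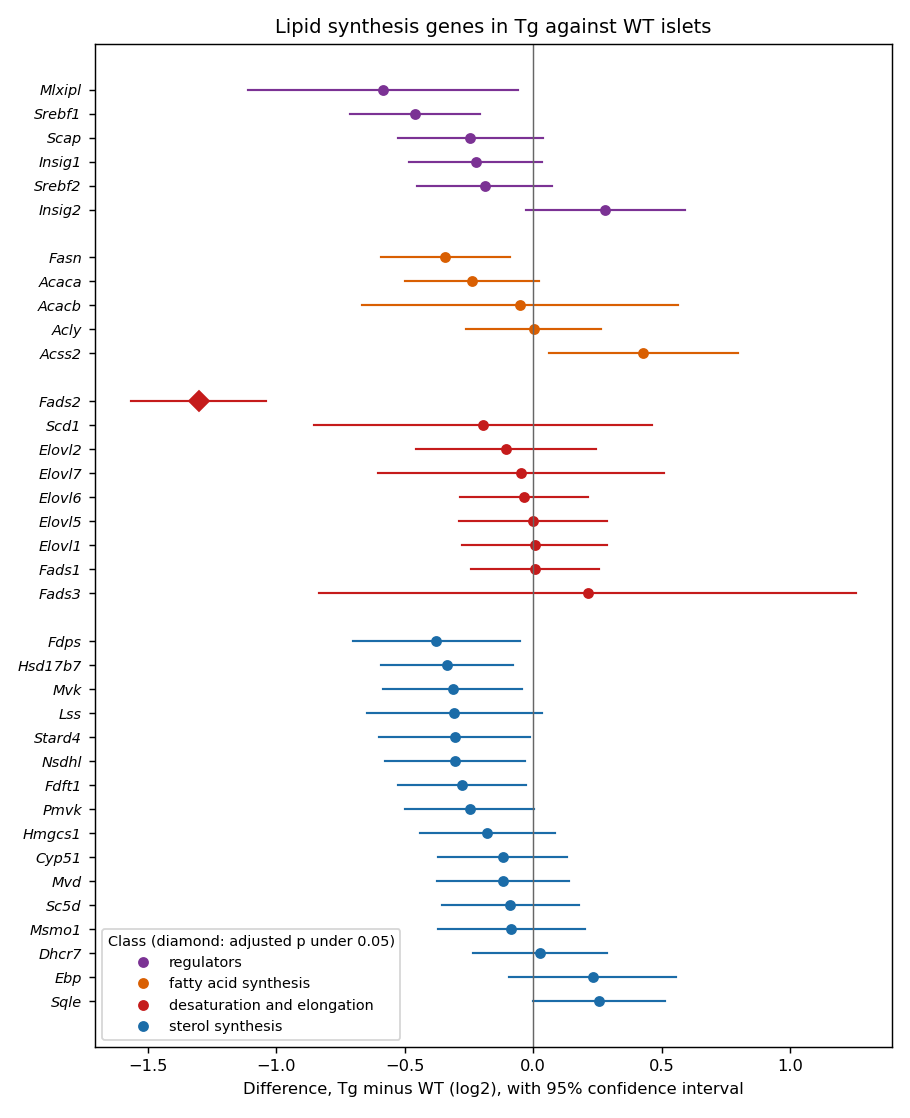
Difference between Tg and WT islets (log2) for the 36 measured members, with 95% confidence intervals from limma, grouped by class. Fads2 at -1.30 is the member with an adjusted p under 0.05, and most sterol genes lie between -0.38 and 0.

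Fads2 stood at 8.50 and 8.50 on the Tg arrays, against 9.74 and 9.86 on the WT arrays. Both Tg arrays were far below both WT arrays, and the Tg arrays agreed to within 0.01. The difference was -1.30 (SE 0.11, 95% confidence interval -1.57 to -1.04, limma adjusted p = 0.0135, n = 2 arrays in each group). The call was lost without variance moderation (adjusted p = 0.472), with the replicate number as a block (0.109), and without Tg replicate 1 or Tg replicate 2. The Fads2 difference lay between -1.36 and -1.24 in all 11 alternatives, several of which leave it unchanged by design. Fads2 lies between Fads3 and Fads1 on mouse chromosome 19, with no other protein-coding gene between them in the GRCm38 annotation. Fads1, the delta-5 desaturase that acts after Fads2 in the same route, had a difference of 0.01 (95% confidence interval -0.24 to 0.26). It stood at 10.60 and 10.58 in Tg islets, against 10.56 and 10.61 in WT islets. Its groups overlap, and the interval holds no difference as large as that of Fads2. Fads3, a related desaturase, had a difference of 0.21 with a wide interval of -0.83 to 1.26.

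The promoters of the neighbours Fads2 and Fads3 are shown because the genes lie side by side and the values of Fads2 separated the groups. RefSeq (GRCm38.p6) gives 300 bases, from 250 before to 50 after the start, at chr19:10101454-10101753 on the minus strand for Fads2 and chr19:10041298-10041597 on the plus strand for Fads3. They are printed 5′ to 3′. Capitals mark matches on either strand to the SREBP motif TCACNCCAC, the E-box CACGTG, the NF-Y box CCAAT and the GC box GGGCGG.
Fads2 promoter: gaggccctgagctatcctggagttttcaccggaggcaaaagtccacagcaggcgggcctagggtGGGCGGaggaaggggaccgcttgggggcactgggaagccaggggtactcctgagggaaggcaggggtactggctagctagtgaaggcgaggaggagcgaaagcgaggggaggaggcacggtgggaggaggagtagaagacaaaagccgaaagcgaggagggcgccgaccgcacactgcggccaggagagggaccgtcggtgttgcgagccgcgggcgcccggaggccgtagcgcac
Fads3 promoter: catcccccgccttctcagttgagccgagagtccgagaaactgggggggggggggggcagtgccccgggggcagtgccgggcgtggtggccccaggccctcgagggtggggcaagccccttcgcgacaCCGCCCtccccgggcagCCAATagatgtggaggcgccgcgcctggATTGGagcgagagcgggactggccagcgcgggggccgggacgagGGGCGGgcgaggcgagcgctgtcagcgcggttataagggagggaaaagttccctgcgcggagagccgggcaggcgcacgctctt
The window of Fads2 held 1 GC box and none of the other motifs, and that of Fads3 held 2 GC boxes and 2 NF-Y boxes, with no overlap between matches. Fads1 had no entry in the promoter table.

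Among the other genes that shape fatty acid chains, Scd1, the stearoyl-CoA desaturase that makes monounsaturated fatty acids, stood at 8.11 and 7.30 in Tg islets, against 7.80 and 8.01 in WT islets. Its WT arrays lay between its Tg arrays, and its difference was -0.20 (SE 0.27). Elovl2, an elongase of polyunsaturated fatty acids, stood at 8.71 and 8.81 in Tg, against 9.02 and 8.70 in WT, and its groups overlapped too. Elovl5, the elongase that works between the Fads2 and Fads1 steps, differed by -0.0009 (95% confidence interval -0.29 to 0.29). Elovl6, which lengthens palmitate, differed by -0.04 (interval -0.28 to 0.21) and Elovl1, an elongase of very long chains, by 0.01 (interval -0.28 to 0.29). Elovl7 differed by -0.05 (interval -0.60 to 0.51). Without Fads2, 1 of the other 8 measured genes of this class, Elovl6, had groups that did not overlap, a smaller share than the 42.3% of all genes. Its difference lay between -0.055 and -0.016 with a Tg array left out. None of the 8 had an unadjusted p under 0.05.

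A further list of 17 measured genes held more desaturases and elongases, enzymes of the later steps of elongation and the proteins that pass electrons to desaturases, and it gave no call. Its median difference was -0.10, with 11 genes lower and 6 higher. Elovl4, an elongase of very long chains, stood at 8.54 and 8.76 in Tg, against 8.48 and 8.11 in WT (difference 0.36, limma adjusted p = 0.475). Scd3, a relative of Scd1, stood at 6.23 and 6.63 in Tg, against 6.87 and 6.56 in WT, and its groups overlapped (difference -0.29, limma adjusted p = 0.612). The differences of the other desaturases and elongases of the list were small: -0.16 for Scd4, -0.10 and 0.09 for Degs2 and Degs1, which act on sphingolipids, -0.07 for Elovl3 and -0.0047 for Fads6. Cyb5a, the cytochrome b5 that passes electrons to the desaturases, had the smallest p of the list. It stood at 10.50 and 10.64 in Tg, against 10.30 and 10.28 in WT (difference 0.28, limma adjusted p = 0.401). Both Tg arrays were above both WT arrays. The cytochrome b5 reductase Cyb5r3 had a difference of -0.13. Enzymes of the later steps of the elongation cycle, Hacd2 (-0.10), Hacd3 (0.14), Tecr (-0.14) and Hsd17b12 (-0.15), all had adjusted p-values of at least 0.723.

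Spread between arrays of 1 group marked a few members, picked here after their values were seen. Fads3 stood at 9.32 and 8.88 in Tg islets, against 8.23 and 9.55 in WT islets. Elovl7 stood at 8.49 and 8.36 in Tg, against 8.14 and 8.81 in WT. Acacb, the acetyl-CoA carboxylase of the mitochondrial surface, stood at 5.74 and 5.58 in Tg, against 5.33 and 6.09 in WT. In each of these genes the WT arrays were the lowest and the highest of the 4. The mean of the markers of acinar cells, the enzyme-secreting cells around islets, ran in the same order, though Amy2b and Rbpjl among these markers did not. Their list of 9 measured genes had a mean log2 level of 10.49 and 10.12 on the Tg arrays, against 9.76 and 10.80 on the WT arrays. That of 6 measured duct genes was 8.71 and 8.48 in Tg, against 7.74 and 9.07 in WT. The duct list held 1 call, Cftr, higher in Tg, which did not follow the order of the means, and Krt7 had the reverse order. Fads1 had the order of the list means as well, over a range of less than 0.05, so 4 of 36 members had it, against 4.1% of all genes. The reverse order was found in 1 member, Elovl2, against 4.78% of all genes. Scd1, whose values are given above, had a distance of 0.81 between its Tg arrays, wider than that of Acacb (0.76) or Elovl7 (0.67) between the WT arrays, and did not follow either order. The part of exocrine cells in these values was not tested. Fads2 did not follow the order of the list means. That order places both Tg arrays between the WT arrays, so no gene whose groups do not overlap can follow it or its reverse.

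**Figure D3:**
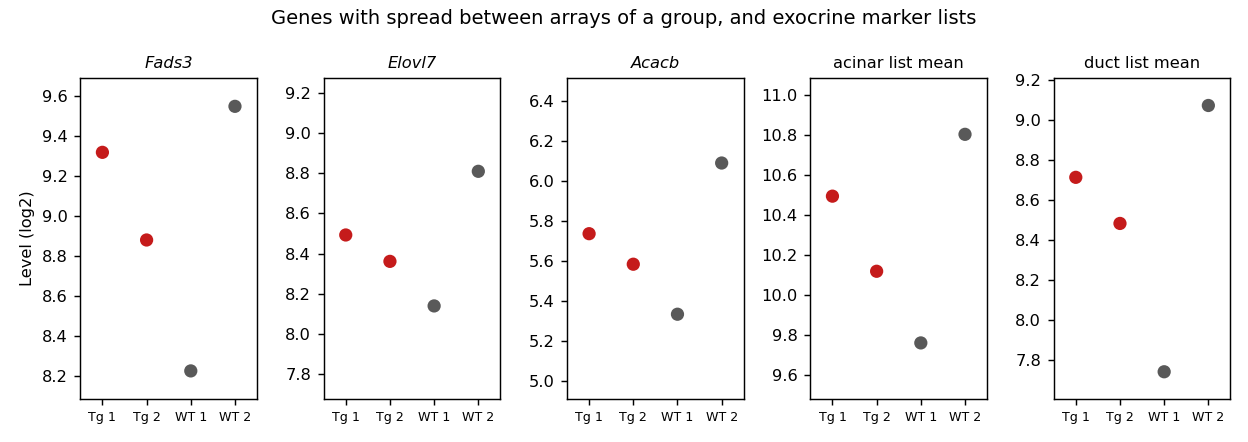
Log2 levels of Fads3, Elovl7 and Acacb and mean log2 levels of the acinar and duct marker lists on each array, Tg left of WT. In every panel WT replicate 1 is lowest and WT replicate 2 highest, at 8.23 and 9.55 for Fads3.

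Of the genes that make the fatty acid chain, Fasn, the fatty acid synthase, had the smallest p. It stood at 9.89 and 9.83 in Tg islets, against 10.20 and 10.20 in WT islets. The groups did not overlap, and the difference was -0.34 (SE 0.10, limma adjusted p = 0.278). Acaca, the cytosolic acetyl-CoA carboxylase, stood at 8.08 and 8.06 in Tg, against 8.37 and 8.25 in WT, and Tg was again below WT (difference -0.24, limma adjusted p = 0.462). Acss2, which makes acetyl-CoA from acetate, ran the other way. It stood at 9.68 and 9.66 in Tg, against 9.43 and 9.05 in WT (difference 0.43, SE 0.15, limma adjusted p = 0.356). Its difference was 0.24 without WT replicate 2 and 0.62 without WT replicate 1. Acly, ATP citrate lyase, was among the brightest genes of the islets and had a difference of 0.00 (95% confidence interval -0.26 to 0.26). With Acacb at -0.05, the 5 genes had a median of -0.05 and no common direction.

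Enzymes that supply acetyl-CoA and NADPH, the reducing power for lipid synthesis, held no call in 10 measured genes. Me1, the cytosolic malic enzyme, had the smallest p of this list. It stood at 10.15 and 10.16 in Tg, against 9.79 and 9.63 in WT (difference 0.44, SE 0.11, limma adjusted p = 0.203). Its Tg arrays lay above its WT arrays, as did those of Acss1, the mitochondrial acetyl-CoA synthetase (difference 0.54, limma adjusted p = 0.230). Me3 (difference -0.37) and Idh1 (-0.22) had both Tg arrays below both WT arrays. Of the 10 genes, 6 were lower and 4 higher in Tg. The citrate carrier gene Slc25a1 differed by -0.03, and Pgd, of the pentose phosphate route, by 0.00.

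The regulators all had groups that did not overlap, 5 lower and 1 higher in Tg, where 23.7% of all genes did not overlap and were lower and 18.6% were higher (30.4% and 17.0% above the median level, where all 6 lie). Srebf1, which encodes the SREBP forms that drive fatty acid genes, stood at 8.19 and 8.12 in Tg islets, against 8.61 and 8.61 in WT islets. The Tg arrays were clearly below the WT arrays, whose values agreed to within 0.01. The difference was -0.46 (SE 0.10, 95% confidence interval -0.71 to -0.21), a 1.38-fold lower level with an adjusted p of 0.158 by limma. Mlxipl, which encodes the glucose-responsive factor ChREBP, stood at 9.74 and 9.46 in Tg, against 10.47 and 9.90 in WT (difference -0.58, SE 0.21, limma adjusted p = 0.374). Its WT arrays stood further apart than its Tg arrays, and the difference was -0.30 without WT replicate 1 and -0.87 without WT replicate 2. Insig2, a protein that retains SREBPs in the endoplasmic reticulum, stood higher, at 8.77 and 8.53 in Tg, against 8.42 and 8.32 in WT (difference 0.28, limma adjusted p = 0.465), and the difference was 0.16 without Tg replicate 1. Its relative Insig1, itself an SREBP target, had a difference of -0.22. The escort protein gene Scap had -0.25, with a dimmer second probeset at 0.00, and Srebf2, whose product drives sterol genes, had -0.19.

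A further list on the control of SREBP and of the sterol-sensing LXR receptors held no call in 16 measured genes, and its median was -0.03. Rxra, the partner receptor of LXR and PPAR, had the smallest p, at 8.58 and 8.63 in Tg, against 8.85 and 8.77 in WT (difference -0.20, limma adjusted p = 0.527). The proteases that release SREBPs, Mbtps1 (-0.09) and Mbtps2 (0.08), lay on either side of 0. Ppara, whose receptor protein acts on fatty acid genes including Fads2, had -0.16 and Nr1h3, the LXR alpha gene, 0.02. Mlx, the binding partner of ChREBP, had -0.10.

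Sterol synthesis was the class with the most members, and most of them lay slightly lower in Tg. Of 16 measured genes, 13 had a difference below 0, and for 12 of these the groups did not overlap, against a background of 23.7% of all genes and 30.4% of those above the median level, where all 16 lie. No sterol gene was called by limma, and 7 had an unadjusted p under 0.05, 6 lower and 1 higher in Tg. Of genes above the median level, 7.49% were lower and 6.7% higher at that threshold, and of all genes 5.72% and 6.13%. The differences were small: they ran from -0.38 to 0.26, with a median absolute difference of 0.25, against 0.12 over all genes. Hsd17b7, a ketoreductase of the late steps, stood at 8.46 and 8.53 in Tg islets, against 8.80 and 8.86 in WT islets (difference -0.34, SE 0.10, limma adjusted p = 0.299). Fdps, which makes farnesyl diphosphate, stood at 10.37 and 10.65 in Tg, against 10.92 and 10.85 in WT (difference -0.38, SE 0.13, limma adjusted p = 0.357). Mvk, mevalonate kinase, stood at 7.67 and 7.82 in Tg, against 8.07 and 8.04 in WT (difference -0.31, SE 0.11, limma adjusted p = 0.360). In all 3 genes both Tg arrays lay below both WT arrays. The difference of Fdps was -0.24 without Tg replicate 1.

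Along the pathway, differences below 0 were found at early, middle and late steps. Hmgcs1, the synthase at the entry to the mevalonate route, had a difference of -0.18. Pmvk and Mvd, which act after Mvk, had -0.25 and -0.12. Fdft1, the squalene synthase at the branch to sterols, had -0.28, and Lss, which closes the ring to lanosterol, had -0.31. Cyp51, which demethylates lanosterol, had -0.12. Msmo1 and Nsdhl, which also remove methyl groups, had -0.08 and -0.30. Sc5d, a late desaturase, had -0.09, and the sterol carrier gene Stard4 had -0.31. The exceptions were Sqle, Ebp and Dhcr7. Sqle, the squalene epoxidase and a controlled step of the route, had a difference of 0.26 (95% confidence interval 0.0007 to 0.51, limma adjusted p = 0.421). Ebp, a sterol isomerase, had 0.23, and Dhcr7, the enzyme of the last step to cholesterol, had 0.03 with groups that overlapped. A single array moved several of these values by over 1.5 times without turning them. Without Tg replicate 1 Lss was at -0.15 and Ebp at 0.35. Without Tg replicate 2 Lss was at -0.47, Ebp at 0.11 and Stard4 at -0.20. Without WT replicate 2 Hmgcs1 was at -0.12, Mvd at -0.074, Sc5d at -0.024 and Ebp at 0.15. Without WT replicate 1 Sc5d was at -0.15.

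Markers of several cell types differed between the groups in level, and in bulk RNA fewer cells of a type and less RNA per cell cannot be told apart. All 14 measured immune cell markers were higher in Tg, with 1 call (Coro1a), and their mean log2 level was 8.08 and 7.70 on the Tg arrays, against 7.12 and 6.89 on the WT arrays. All 10 endothelial markers were higher, with means of 8.88 and 8.58 in Tg, against 8.37 and 8.18 in WT. All 11 mesenchymal markers were higher, with means of 7.54 and 7.37 in Tg, against 6.98 and 7.17 in WT. Neither of these lists held a call. Beta cell markers were lower for 6 of 9 genes, with means of 11.04 and 11.13 in Tg, against 11.33 and 11.09 in WT. Those of other endocrine cells were lower for 6 of 8, with means of 10.65 and 10.66 in Tg, against 11.06 and 10.83 in WT. The beta cell mean of WT replicate 2 lay between the Tg means. All 9 beta cell and all 8 other endocrine markers lie above the median level, where 60.0% of genes had a difference below 0. Over all genes that share was 54.3%. Ins2, the insulin gene, stood at 12.52 and 12.59 in Tg, against 12.57 and 12.46 in WT, so the labelled tissue carried its defining marker on every array. Some acinar markers were brighter still. Ctrb1 stood at 13.83 and 13.67 in Tg, against 13.56 and 13.89 in WT, and Cpa1 too lay above Ins2 on every array. Others were dim, such as Amy2b at 5.12 and 4.28 in Tg, against 4.13 and 4.47 in WT. Adipocyte markers were higher for 7 of 8 genes, with means of 5.78 and 5.78 in Tg, against 5.54 and 5.58 in WT. The defining Adipoq stood at 4.46 and 4.45 in Tg, against 4.30 and 4.35 in WT, below the first quartile of all genes (4.95). Fabp4 had the largest difference of the list (1.07), and Plin1 was the marker below 0 (-0.14). Schwann cell markers were lower for 3 of 5 genes, with a median difference of -0.01. Their means were 5.25 and 5.21 in Tg, against 5.12 and 4.95 in WT, with Ngfr the furthest apart (difference 1.23). No value is 0 on this scale. Differences of single markers ran from -0.60 to 0.12 among beta cell genes and from -0.86 to 0.06 among other endocrine genes. The part of these cells in the differences of Fads2, the sterol genes and the regulators was not tested.

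The promoters of Hmgcs1 and Hsd17b7 are shown as sterol genes whose windows hold the SREBP motif or an E-box. They lie at chr13:119690101-119690400 on the plus strand and chr1:169969156-169969455 on the minus strand (RefSeq, GRCm38.p6), and capitals mark the same 4 motifs.
Hmgcs1 promoter: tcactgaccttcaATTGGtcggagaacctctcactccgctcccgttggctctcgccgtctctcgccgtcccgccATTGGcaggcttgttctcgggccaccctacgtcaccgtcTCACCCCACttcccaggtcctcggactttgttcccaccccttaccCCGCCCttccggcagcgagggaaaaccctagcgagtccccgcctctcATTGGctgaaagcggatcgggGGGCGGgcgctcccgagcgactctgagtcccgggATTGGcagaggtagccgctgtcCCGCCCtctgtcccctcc
Hsd17b7 promoter: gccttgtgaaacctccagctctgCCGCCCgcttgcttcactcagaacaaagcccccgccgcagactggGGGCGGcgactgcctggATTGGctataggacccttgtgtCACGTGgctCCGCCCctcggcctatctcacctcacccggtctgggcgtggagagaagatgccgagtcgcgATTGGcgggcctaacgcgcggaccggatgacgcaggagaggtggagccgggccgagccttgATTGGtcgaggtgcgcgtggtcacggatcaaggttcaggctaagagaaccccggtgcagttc
The window of Hmgcs1 held 1 SREBP motif, 4 NF-Y boxes and 3 GC boxes. That of Hsd17b7 held 1 E-box, 3 NF-Y boxes and 3 GC boxes, and again no matches overlapped. Promoters were found for 32 of the 39 genes, 43 in all because some genes have several starts. The NF-Y box was in 60.5% of the 43, against 37.4% of 32851 promoters of all genes, and the GC box was in 72.1%, against 35.7%. The E-box was in 18.6%, against 7.15%, and the SREBP motif in 4.65%, against 1.24%. The SREBP motif was found in Hmgcs1 and Mlxipl. A relation between motifs and differences was not tested. These matches describe the letters of each window.

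Enzymes beside the main sterol route, and the genes that move sterols, held no call. In 10 measured genes of other sterol and isoprenoid enzymes the median was -0.04. Tm7sf2, a sterol reductase, had the smallest p, at 7.82 and 8.12 in Tg, against 8.34 and 8.21 in WT (difference -0.30, limma adjusted p = 0.477). In 12 measured carriers and exporters the median was -0.06. Lrp1, a lipoprotein receptor, had the smallest p (difference 0.20, limma adjusted p = 0.577). It stood at 7.96 and 7.92 in Tg, against 7.83 and 7.65 in WT. The LXR targets Abca1 and Abcg1, which export cholesterol, differed by -0.09 and -0.14, both with groups that overlapped.

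The genes that activate fatty acids and build triglycerides and phospholipids from them gave no call in 24 measured genes, with a median of -0.08. Acsl4, an acyl-CoA synthetase that prefers polyunsaturated chains such as arachidonate, had the smallest p. It stood at 10.57 and 10.63 in Tg, against 10.36 and 10.35 in WT (difference 0.24, SE 0.10, limma adjusted p = 0.433), and the groups did not overlap. Lpcat3, which places polyunsaturated chains in phospholipids, differed by -0.09, and Dgat1 and Dgat2, the last enzymes of triglyceride synthesis, by -0.06 each. Across all 89 measured genes of these further lists, 26 had groups that did not overlap, 15 lower and 11 higher in Tg, a smaller share than the 42.3% of all genes. Of the 89, 3 had an unadjusted p under 0.05 by limma, all higher in Tg. Over all genes 6.13% were higher and 5.72% lower at that threshold, both larger shares than in these lists.

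The classes of members can be set beside each other and beside all genes. The median differences were -0.23 for regulators, -0.21 for sterol synthesis, -0.05 for fatty acid synthesis and -0.04 for desaturation and elongation, against -0.02 for all genes. Groups did not overlap in 6 of 6 regulators, 14 of 16 sterol genes, 3 of 5 fatty acid synthesis genes and 2 of 9 desaturation and elongation genes, against 42.3% of all genes and 47.4% of those above the median level. The share in the desaturation and elongation class lay below both. The classes differ in size and in the spread of their genes, and differences between them were not tested. With Fads2 aside, the 8 measured desaturation and elongation genes had a median absolute difference of 0.04, below the 0.12 of all genes. Scd2 is not among them, and the probeset it shares with Mir5114 had a difference of -0.49, with groups that did not overlap.

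**Figure D4:**
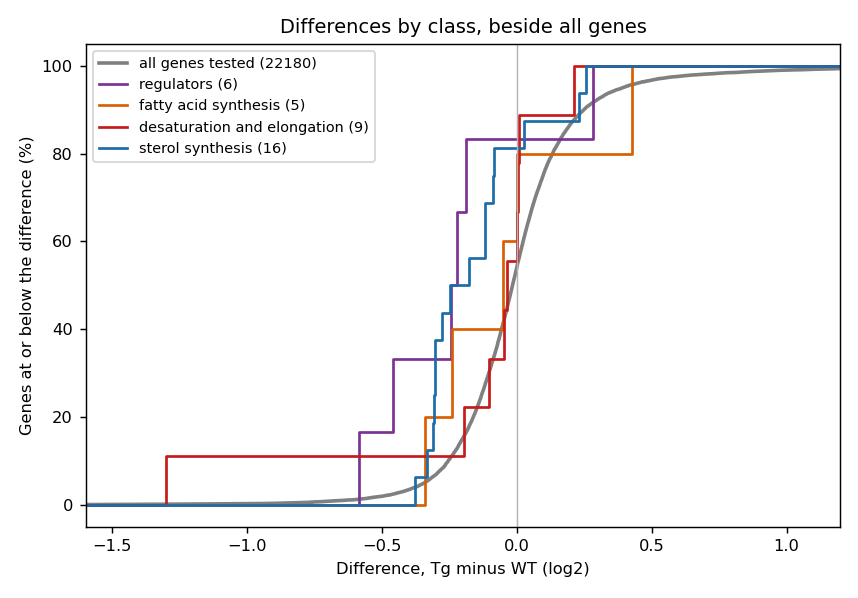
Cumulative share of genes at or below each difference between Tg and WT (log2) for the 4 classes of members and for all 22180 genes. The sterol and regulator lines lie left of the line for all genes around their medians of -0.21 and -0.23, and the desaturation and elongation line has a median near that of all genes, a steeper rise around 0 and Fads2 at -1.30.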

How the data were processed

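For each array, 250 ng of islet RNA was labelled and read on the Affymetrix Mouse Gene 2.0 ST design, per the labels. The deposited log2 values were made with Partek and RMA, per the submitters' processing notes, without versions. RMA corrects background, normalises arrays by quantiles and sums up probes. That the scale is log2 was read from the range of 2.87 to 13.9. A build of the array values was not given in the sources used here. Groups were taken from the titles.

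Of 27037 probesets, the platform annotation paired 23521 with a single gene symbol. Older synonyms were allowed, and the brightest probeset over the 4 arrays stood for a gene, with no filter. Tg minus WT came from limma (version 3.58.1, in R 4.3.3; lmFit, then eBayes), and p-values were adjusted over 22180 genes by Benjamini-Hochberg. There were 2 residual degrees of freedom, to which moderation added 3.76. With 2 arrays against 2, the smallest two-sided p of an exact permutation test is 0.333, so p-values rest on limma's model, and the number of arrays limits the precision. The fit was also run on simulated data drawn from its own fitted variance model, which cannot test that model. Medians of classes have no test.

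The members and the lists were chosen with earlier results of these data known, so their counts beside shares of all genes are descriptive. Array values were given for members past the adjusted threshold of 0.05, for the 3 members with the smallest p in each class, and for the gene with the smallest p in each of 6 further lists. Of 97 genes in those lists, 89 were measured. Of 10 lists of cell type markers, 9 had measured genes and that of red blood cells had none. Alternatives were the mean of probesets, keeping genes above the median level, quantile normalisation, centring, a variance trend with a robust prior, no moderation, a replicate block and each array left out. Counts of genes whose groups do not overlap were added after the data were seen.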

Additional observations from a re-analysis of the deposited data

How the results depend on the processing

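Fads2 was the member called with the mean of probesets, the level filter, quantile normalisation, centring and a variance trend with a robust prior, and without either WT array. The count of members called was 0 without moderation, with the replicate block and without either Tg array, giving 0 to 1 when arrays were left out in turn. The difference of Fads2 stayed below 0 in all 11 alternatives, and 4 ended the call. The mean of probesets, level filter, variance trend, no moderation and replicate block leave this difference at -1.30 by design. Since its groups do not overlap, leaving out an array cannot turn its sign either. The 199 genes called over all genes became 347 with the variance trend and robust prior, 0 without moderation (2627 had an unadjusted p under 0.05 with limma), 24 with the replicate block and 38 to 135 with each array left out. The labels do not say what a shared replicate number means, and same-numbered arrays did not deviate together (correlation -0.063 over genes), so the block is given here as a check. Fitted with 1 array in a group, that array is assumed to vary like the others. Over 395 alternatives of members, 368 kept direction and call, 4 lost the call of Fads2 and 23 changed sign, in 11 genes. Settings that change only the test or the filter cannot change a direction, so part of the 368 was fixed by design. The sign changed for Acly under quantile normalisation (-0.014) and centring (-0.018), for Fads1 (-0.014) and Elovl1 (-0.015) under centring, and for Elovl5 under quantile normalisation (0.0040). With each array left out, Acly lay between -0.042 and 0.045, Acacb between -0.43 and 0.33, Scd1 between -0.60 and 0.21, Fads1 between -0.016 and 0.029, Fads3 between -0.45 and 0.87, Elovl1 between -0.062 and 0.072, Elovl2 between -0.27 and 0.056, Elovl5 between -0.097 and 0.095, Elovl7 between -0.38 and 0.29, Msmo1 between -0.17 and 0.0051, and Dhcr7 between -0.032 and 0.083. The cause was not tested. The median of sterol synthesis lay between -0.25 and -0.16, and that of regulators between -0.27 and -0.20, in all alternatives run for them. That of fatty acid synthesis lay between -0.18 and 0.02, and that of desaturation and elongation between -0.06 and 0.02. Of members whose groups did not overlap, 20 to 21 were lower and 3 to 4 higher with all arrays, where 23.6% to 30.4% of all genes tested were lower and 16.0% to 18.6% higher. With an array left out, 22 to 25 were lower and 4 to 9 higher (7 without Tg replicate 2 or WT replicate 1), where the shares of all genes were 36.0% to 41.4% and 29.2% to 34.4%, since fewer arrays overlap less often. Leaving out 1 array moved 11 of the 25 members that kept their sign by over 1.5 times, and their values are given beside each gene.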

Other observations

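Probesets that the annotation pairs with several symbols were outside the comparison, and 2 of them name a member. The probeset paired with both Scd2, a stearoyl-CoA desaturase gene, and the microRNA gene Mir5114 stood at 11.06 and 11.10 on the Tg arrays, against 11.61 and 11.54 on the WT arrays (difference -0.49, SE 0.11). Both Tg arrays lay below both WT arrays, and its adjusted p was 0.151 by limma over all 27037 probesets. The probeset paired with both Idi1, the isopentenyl diphosphate isomerase gene, and Gm13502 stood at 8.52 and 8.65 in Tg, against 8.72 and 8.92 in WT (difference -0.23, limma adjusted p = 0.574). Neither is read as the level of a single gene.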
